A study of Mus musculus with 6 samples.

Results

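The 44 genes described here encode the machinery of vesicle transport between the endoplasmic reticulum (ER) and the Golgi apparatus. They are the COPII coat, the COPI coat with its ARF cycle, the p24 proteins and cargo receptors, the 3 KDEL receptors and the tethers and SNAREs of this step. They were chosen by name and role from 24421 gene symbols with counts, by a rule that uses no measured value, though with earlier results of these data known. All 44 had a row and passed the filter on low counts, together with 12766 genes of the whole table.

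The samples were mature 3T3-L1 adipocytes, a mouse preadipocyte line that becomes fat cells in culture. All cultures received a differentiation medium with insulin (870 nM), TZD (5 µM), Dex (1 µM) and IBMX (500 µM), from which Dex and IBMX were left out from day 3. On day 7 the cells were infected with 100 pfu/cell of a control adenovirus carrying LacZ (AdLacZ, 3 libraries) or of one carrying a codon-optimized murine *Lmo3* (Ad*Lmo3*, 3 libraries), and total RNA was taken 3 days later. The control group therefore also carried a virus, no uninfected cells were sequenced, and a single cell line and a single time were examined. The labels give the genotype as the virus and the strain as C57BL/6. The paper names C57BL/6J for its mice only and gives no strain for the 3T3-L1 line. LMO3 is a LIM-domain cofactor without a DNA-binding domain of its own, and the comparison asks what its overexpression did to the transcripts of mature adipocytes.

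Proteins made in the ER leave it in vesicles coated by COPII. The GTPase SAR1 recruits SEC23 and SEC24 and then the outer cage of SEC13 and SEC31, and SEC24 picks the cargo. COPI vesicles, built from a coatomer of several subunits on the GTPase ARF1, carry escaped ER proteins and recycling receptors back. Chaperones of the ER lumen end in the signal KDEL or a close variant, which the KDEL receptors bind in the Golgi and release in the ER. In adipocytes this route carries secreted proteins such as adiponectin and lipoprotein lipase and membrane proteins such as glucose transporters.

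Library totals ran from 28035639 to 38332335 counts. The *Lmo3* row had 0 counts in all 6 libraries and hence could not check the labels. The limit that a count of 0 allows, 3 counts, corresponds to 0.0783 to 0.107 CPM (counts divided by the library size and multiplied by 1e6). For every other CPM value the library size was first multiplied by its TMM scaling factor. Of 12 adipocyte markers, all had a fold change above 0 in Ad*Lmo3* with the scaling factors used here. With edgeR 8 of them were significantly induced, where 2.71% of all genes were. *Retn*, *Adipoq*, *Cfd*, *Cidec* and *Fabp4* had the largest log2 fold changes, 1.44, 1.05, 0.81, 0.69 and 0.62. Summed over the 12 markers, the level was 23330 to 26410 CPM in AdLacZ and 31170 to 38170 CPM in Ad*Lmo3*. Of 12 preadipocyte and fibroblast markers, none passed the threshold with edgeR or DESeq2 and none had an unadjusted p under 0.05. Their summed level was 26270 to 32340 CPM and 24730 to 37090 CPM, and *Cd34* was near 0 (0.396 and 0.302 CPM) while collagens were abundant. The part of these marker levels in any result below was not tested, and in bulk RNA fewer cells of a type and less RNA per cell cannot be told apart.

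The promoters of the transport genes were searched for the DNA words read by the unfolded protein response, the ER stress pathway whose factors ATF6 and XBP1 act on many ER genes. RefSeq promoters (GRCm38.p6, 250 bases before to 50 after the start of transcription) were at hand for 39 of the 44 genes. The ER stress element, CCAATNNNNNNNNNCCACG on either strand, was in 0 of these 39, and it was in 0.119% of all 32851 promoters. The UPRE core, TGACGTG on either strand, was in 8 of the 39 genes (20.5%), *Arf1*, *Copb1*, *Copb2*, *Gbf1*, *Kdelr3*, *Sec23a*, *Sec24d* and *Stx5a*. Over all genes with a promoter in the table, 2.22% held it. Most of the 39 promoters lacked it. For 5 of the 8 genes that held it, the windows that lie before the RefSeq start of transcription are shown. They are printed on the strand of the gene, with the UPRE core or its reverse complement CACGTCA in capitals.
Sec24d, chr3:123267450-123267495, plus strand: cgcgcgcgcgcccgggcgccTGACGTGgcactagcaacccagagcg
Copb1, chr7:114254681-114254727, minus strand: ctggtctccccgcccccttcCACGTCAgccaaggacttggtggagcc
Arf1, chr11:59228220-59228266, minus strand: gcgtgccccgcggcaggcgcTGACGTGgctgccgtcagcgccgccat
Kdelr3, chr15:79516359-79516405, plus strand: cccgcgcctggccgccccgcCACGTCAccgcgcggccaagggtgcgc
Gbf1, chr19:46152527-46152557, plus strand: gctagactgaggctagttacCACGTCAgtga

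The first base of the word lay 26 bases before the RefSeq start in *Sec24d*, 27 in *Copb1*, 84 in *Arf1*, 29 in *Kdelr3* and 11 in *Gbf1*. GENCODE, a second annotation, begins *Sec24d*, *Copb1*, *Arf1* and *Gbf1* further upstream, so that their words lie inside the gene. In *Kdelr3* the word also lies before the GENCODE start. The UPRE core shares TGACGT with the cAMP response element TGACGTCA, which 1 of the 39 genes (*Cope*) held against 2.03% of all genes. The CCAAT box, a common promoter word, was in 16 of the 39 (41.0%) and in 41.1% of all genes. The ERSE-II word, ATTGGNCCACG, was in none of the 39. A match is a stretch of letters and not a shown binding site, and no count of matches was tested.

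The transport genes were well expressed in both groups. Levels between genes are compared per length, as CPM per kb of annotated exon. In AdLacZ adipocytes the means over 3 libraries ran from 9.36 CPM per kb for *Tmed2* to 180.8 for *Arf1*, with a median of 57.4. In Ad*Lmo3* adipocytes the same genes stood at either end, with 8.16 and 155.6, and the median was 53.2. After *Arf1*, the small GTPase that places COPI on Golgi membranes, came *Arf4*, a related GTPase (141.5 ± 8.17 CPM per kb in AdLacZ, SD, n = 3), and *Sar1a*, the GTPase that starts the COPII coat (109.8 ± 9.64). Among COPII genes the inner-coat cargo adaptor *Sec24a* and its paralog *Sec24b* were lowest, with 11.4 and 13.9 CPM per kb. The coefficient of variation between the 3 AdLacZ libraries had a median of 4.47% over the 44 genes and was highest for *Kdelr3* (15.1%), and in Ad*Lmo3* it was 3.71% and again highest for *Kdelr3* (17.8%).

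Sequence shared with other genes limits a few of these levels. Of the 75-base words in *Tmed2* transcripts, 20.9% also occurred in *Gm10698* or *Gm7318*, so that reads from them can be left uncounted or counted elsewhere. The level of *Tmed2* is therefore uncertain. *Tmed7* shared 38.3% of its exon bases with *Ticam2* on the same strand, and *Preb* shared 25% with *Abhd1* on the opposite strand. Both genes are uncertain. For *Preb* this rests on the strand setting of the counting, which no source used here gives, and for *Tmed7* no strand setting could separate the shared bases. *Tmed10* shared 6.71% of its words with *Tmed10-ps*, and *Arf4* 11.1% with *Pde12* and the antisense gene *Arf4os*. Exons on the opposite strand also covered 12.2% of *Gorasp2* (*Tlk1* and *Gm26558*), 6.55% of *Copa* (*Ncstn* and *Gm37756*), 4.77% of *Copg1* and 4.72% of *Sec24c*, and without strand such reads cannot be told apart.

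**Figure D1:**
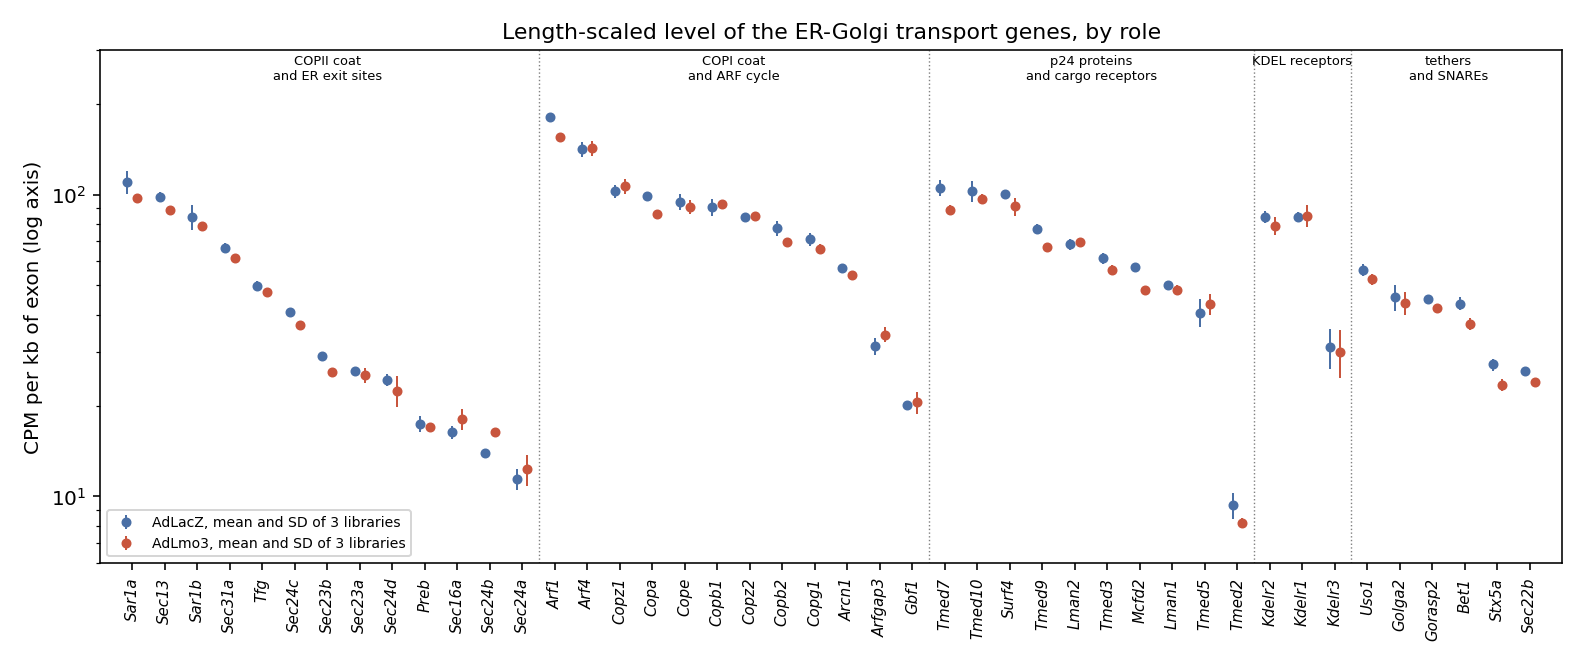
Level of each transport gene in CPM per kb of exon (log axis) in AdLacZ (blue) and AdLmo3 (red) adipocytes, as mean and SD of 3 libraries, ordered within each role by the AdLacZ level. *Arf1* was the highest (180.8 and 155.6) and *Tmed2* the lowest (9.36 and 8.16), and no gene's log2 fold change between the groups went past -0.25 or 0.24.

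Between the groups, none of the 44 transport genes passed an adjusted p of 0.05 with edgeR's quasi-likelihood test. Over all genes tested, 1.57% were called lower and 2.71% higher in Ad*Lmo3*. At an unadjusted p under 0.05, 10 of the 44 were lower (22.7%, against 9.54% of all genes) and 1 was higher (2.27%, against 11.1%). DESeq2 called 4 of them lower (9.09%, against 3.43%), *Mcfd2*, *Arf1*, *Copa* and *Tmed7*, and 1 higher (2.27%, against 5.26%), *Sec24b*. The libraries of the groups did not overlap for 19 genes that were lower in Ad*Lmo3* (43.2%, against 13.2%) and for 1 that was higher (2.27%, against 13.3%).

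The differences were small. The fold change was below 0 for 32 genes and above 0 for 12, with a median log2 fold change of -0.09, where the median over all 12766 genes was 0.0014 and 49.6% were below 0. The log2 fold changes ran from -0.25 for *Mcfd2* to 0.24 for *Sec24b*. The 95% intervals of all 44 genes lay within 0.5 of 0 on the log2 scale. The outermost bounds were -0.41 for *Tmed2* and 0.36 for *Sec24b*. The standard errors ran from 0.0551 to 0.147, with a median of 0.0685, and the median over all tested genes was 0.0981. In absolute value the median log2 fold change of the 44 genes was 0.109, near the 0.127 of all genes.

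Summed over the 44 genes, the level was 7865, 7661 and 7873 CPM for AdLacZ and 7513, 7332 and 7300 CPM for Ad*Lmo3*. Every Ad*Lmo3* library lay below every AdLacZ library. Their share of all counts was 0.781% to 0.817% in AdLacZ and 0.703% to 0.739% in Ad*Lmo3*. This count share is not corrected by the scaling factors, which were 1.02 to 1.04 in AdLacZ and 0.964 to 0.985 in Ad*Lmo3*, and the summed CPM is. With library totals alone as the scale, the median of all genes shifted by -0.07 and 39 of the 44 genes were below 0. The median of all genes was then itself below 0, and the share of all genes below 0 on this scale was not counted. On this scale 7 were called lower (*Arf1*, *Bet1*, *Copa*, *Mcfd2*, *Sec23b*, *Stx5a* and *Tmed7*). Over all 12766 genes it called 767 in either direction, against 547 with the scaling factors. How many of the 767 were lower was not counted.

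**Figure D2:**
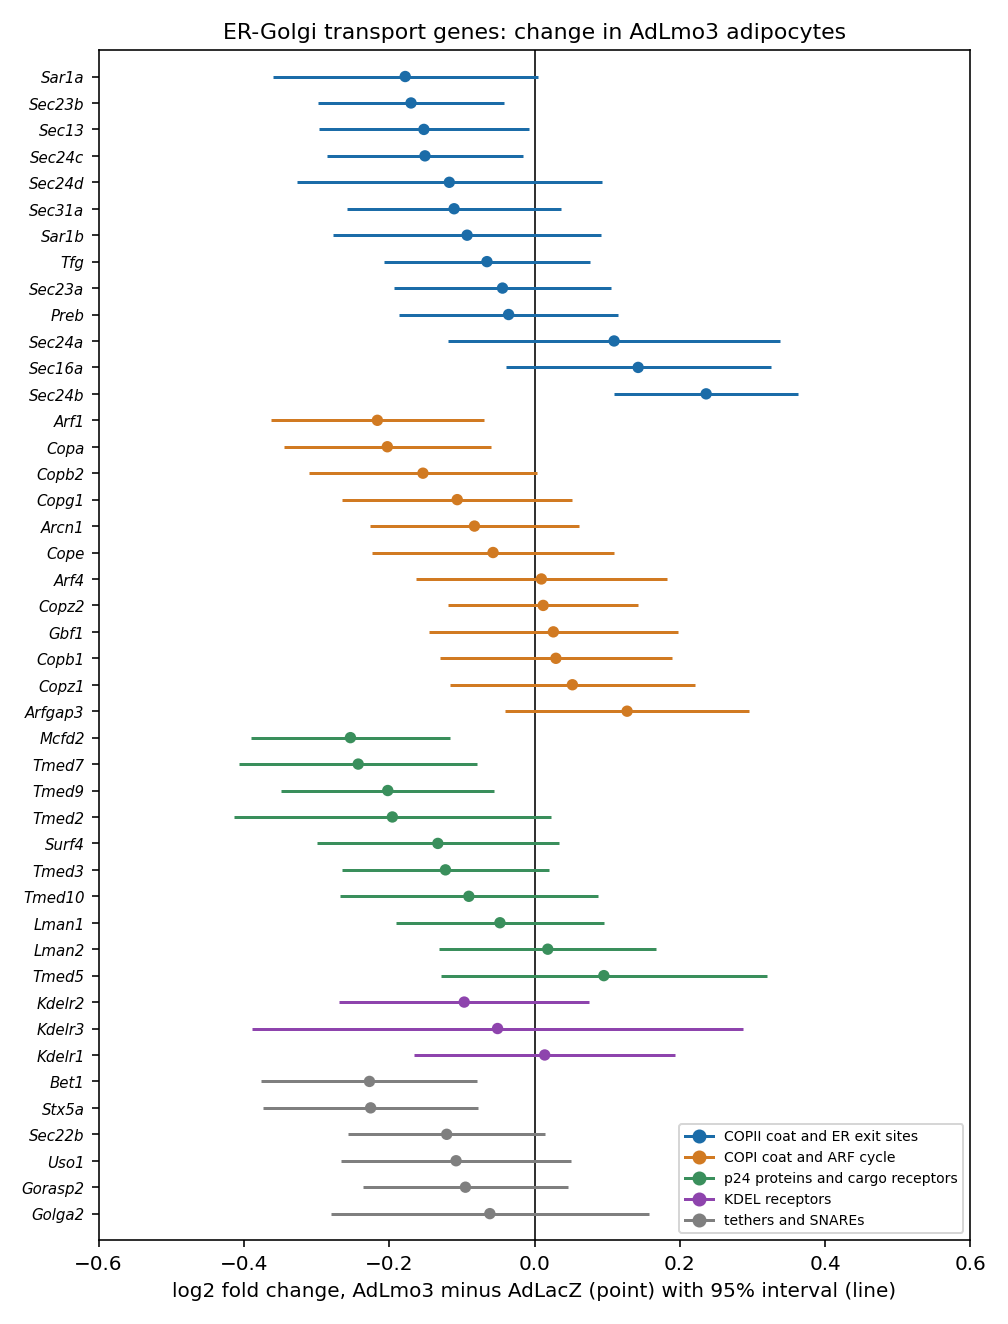
Log2 fold change of each transport gene, AdLmo3 minus AdLacZ (points), with its unadjusted 95% interval computed from edgeR's test (lines), grouped by role in colours. All intervals lie between -0.41 and 0.36, 32 points lie left of 0 and 12 right of it, and *Sec24b* stands highest at 0.24.

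Of the 13 genes of the COPII coat and ER exit sites, 10 had a fold change below 0 and 3 above, with a median of -0.09. None was called by edgeR, and DESeq2 called *Sec24b* higher. The cargo adaptor *Sec24b* had the largest difference of the group. It was at 70.4, 72.6 and 71.0 CPM in AdLacZ and at 84.8, 81.9 and 85.3 CPM in Ad*Lmo3*. The Ad*Lmo3* libraries were the higher ones without overlap, by 17.8% (95% interval 7.89% to 28.6%, log2 fold change 0.24 ± 0.0551 SE), with an adjusted p of 0.0554 from edgeR's quasi-likelihood test and 0.0224 from DESeq2. *Sec24b* lies on chromosome 3 of GRCm38 from 129982759 to 130061553.

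Its paralog *Sec24c*, which sorts a partly different set of cargo, had 186.1, 183.3 and 186.5 CPM in AdLacZ and 170.1, 166.0 and 164.7 CPM in Ad*Lmo3*. These groups did not overlap in the opposite direction (log2 fold change -0.15, adjusted p = 0.191 with edgeR). *Sec24a* had a log2 fold change of 0.11 and *Sec24d* of -0.12, each with overlapping libraries. As a share of the summed CPM per kb of the 4 *Sec24* genes, *Sec24b* made up 15.4% ± 0.135 in AdLacZ and 18.7% ± 0.923 in Ad*Lmo3* (SD, n = 3 each). *Sec24c* made up 45.2% ± 0.787 and 42.0% ± 1.38. Neither share overlapped between the groups, and a share does not depend on the scaling of the libraries.

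The GTPase-activating subunit *Sec23b* was at 79.0, 81.8 and 82.1 CPM in AdLacZ and at 73.3, 70.4 and 72.1 CPM in Ad*Lmo3*, without overlap (log2 fold change -0.17, adjusted p = 0.131 with edgeR). Its paralog *Sec23a* had a log2 fold change of -0.04. The share of *Sec23a* in the pair was 47.2% ± 1.08 in AdLacZ and 49.3% ± 1.01 in Ad*Lmo3*, and the lowest Ad*Lmo3* library (48.42%) stood just above the highest AdLacZ library (48.26%). The outer-cage genes *Sec13* (138.0, 131.6 and 130.0 against 124.5, 115.5 and 119.5 CPM) and *Sec31a* (294.2, 277.2 and 273.2 against 267.0, 258.4 and 256.9 CPM) were also lower in each Ad*Lmo3* library. Their log2 fold changes were -0.15 and -0.11, and adjusted p was 0.218 and 0.383 with edgeR.

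The coat-starting GTPase *Sar1a* had 313.8, 263.8 and 283.4 CPM in AdLacZ and 261.4, 253.1 and 246.5 CPM in Ad*Lmo3*. The lowest AdLacZ library stood just above the highest Ad*Lmo3* library, and the log2 fold change of -0.18 had an adjusted p of 0.254 with edgeR. *Sar1b* was at -0.09 with overlapping libraries. *Preb*, which encodes the exchange factor of SAR1, had the smallest difference of the group (106.1, 117.3 and 105.6 against 108.6, 106.2 and 106.2 CPM, log2 fold change -0.04). The exit-site scaffolds *Sec16a* and *Tfg* were at 0.14 and -0.07, each with overlap.

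Of the 12 genes of the COPI coat and ARF cycle, 6 had a fold change below 0 and 6 above, with a median of -0.02, and none was called by edgeR. *Arf1* was at 370.3, 374.8 and 387.9 CPM in AdLacZ and at 331.1, 330.7 and 313.4 CPM in Ad*Lmo3*. The Ad*Lmo3* libraries were all below, by 13.9% (log2 fold change -0.22 ± 0.0637 SE), with an adjusted p of 0.104 from edgeR and 0.0301 from DESeq2. *Copa*, the alpha subunit of coatomer, which reads dilysine retrieval signals, was at 450.1, 462.6 and 468.7 CPM in AdLacZ and at 404.9, 402.0 and 393.4 CPM in Ad*Lmo3*. It had a log2 fold change of -0.20 ± 0.0620 SE, an adjusted p of 0.114 from edgeR and 0.0325 from DESeq2. *Arf1* lies on chromosome 11 from 59211412 to 59228270 and *Copa* on chromosome 1 from 172082529 to 172122330.

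With the scaling factors the coatomer subunits had fold changes on either side of 0. Whether the subunits differed from each other was not tested. The beta-prime subunit *Copb2* (248.1, 221.4 and 239.0 against 217.1, 211.8 and 208.1 CPM), the gamma subunit *Copg1* and the delta subunit *Arcn1* were below AdLacZ without overlap, with log2 fold changes of -0.15, -0.11 and -0.08 and adjusted p of 0.251, 0.437 and 0.516 with edgeR. The beta subunit *Copb1* was at 286.8, 300.9 and 324.6 CPM in AdLacZ and at 308.8, 311.6 and 310.6 CPM in Ad*Lmo3* (log2 fold change 0.03), so that the Ad*Lmo3* libraries lay within the AdLacZ range. *Cope* was at -0.06 with overlap. The zeta subunits *Copz1* and *Copz2* were at 0.05 and 0.01 with overlap. *Copz1* made up 55.0% ± 1.47 of their summed level per kb in AdLacZ and 55.7% ± 1.88 in Ad*Lmo3*. With library totals as the scale, *Copb1*, *Copz1* and *Copz2* were at -0.04, -0.02 and -0.06.

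*Arf4* had the smallest difference of all 44 genes (317.3, 285.9 and 315.8 against 307.3, 292.1 and 325.7 CPM, log2 fold change 0.0094, 95% interval of the percent change -10.7% to 13.5%). *Gbf1*, which encodes the exchange factor that activates ARF1 at the Golgi, was at 0.03, and *Arfgap3*, which encodes an activating protein for ARF GTP hydrolysis, was at 0.13. Both had overlapping libraries. With library totals as the scale *Arf4* and *Gbf1* were at -0.06 and -0.05. Whether *Arf1* and *Arf4* differed in their response was not tested.

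Of the 10 p24 proteins and cargo receptors, 8 had a fold change below 0 and 2 above, with a median of -0.13, and none was called by edgeR. *Mcfd2*, the calcium-binding partner of LMAN1 in the receptor for glycoproteins such as clotting factors, had the lowest log2 fold change of the 44 genes. It was at 160.0, 161.5 and 165.9 CPM in AdLacZ and at 140.4, 134.2 and 134.2 CPM in Ad*Lmo3*. The groups were well apart, by 16.1% (95% interval of the percent change -23.7% to -7.73%, log2 fold change -0.25 ± 0.0598 SE). The adjusted p was 0.0571 from edgeR, 0.00801 from DESeq2 and 0.0440 from limma voom. *Mcfd2* lies on chromosome 17 from 87254443 to 87265935.

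*Lman1*, the lectin that binds MCFD2, was at 236.6, 229.8 and 238.4 CPM in AdLacZ and at 236.3, 222.2 and 223.4 CPM in Ad*Lmo3*. Its libraries overlapped and its log2 fold change was -0.05 (adjusted p = 0.727 with edgeR). Per kb, *Mcfd2* and *Lman1* were at 57.5 and 50.04 CPM in AdLacZ and at 48.2 and 48.4 CPM in Ad*Lmo3*. *Lman2*, a related lectin, had the smallest difference of the group (309.3, 283.7 and 293.8 against 296.4, 296.0 and 305.8 CPM, log2 fold change 0.02, and -0.06 with library totals as the scale).

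The p24 proteins, which help package cargo and shape both coats, gave mixed values. *Tmed7* was at 219.0, 226.0 and 246.1 CPM in AdLacZ and at 202.9, 192.7 and 188.5 CPM in Ad*Lmo3* (log2 fold change -0.24, adjusted p = 0.104 with edgeR and 0.0377 with DESeq2), and its overlap with *Ticam2* leaves the source of these reads uncertain. *Tmed9* was at 124.7, 132.3 and 123.4 CPM in AdLacZ and at 113.0, 112.1 and 105.5 CPM in Ad*Lmo3* (log2 fold change -0.20, adjusted p = 0.123 with edgeR). Both were lower in every Ad*Lmo3* library. *Tmed3* (-0.12, adjusted p = 0.315) did not overlap either, whereas *Tmed2* (-0.20), *Tmed10* (-0.09) and *Tmed5* (0.10) did. *Surf4*, a receptor that exports soluble proteins including lipoproteins, was at 338.6, 322.8 and 324.7 CPM in AdLacZ and at 321.7, 295.8 and 281.6 CPM in Ad*Lmo3* (log2 fold change -0.13, adjusted p = 0.352 with edgeR), with the nearest libraries 322.8 and 321.7 CPM.

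**Figure D3:**
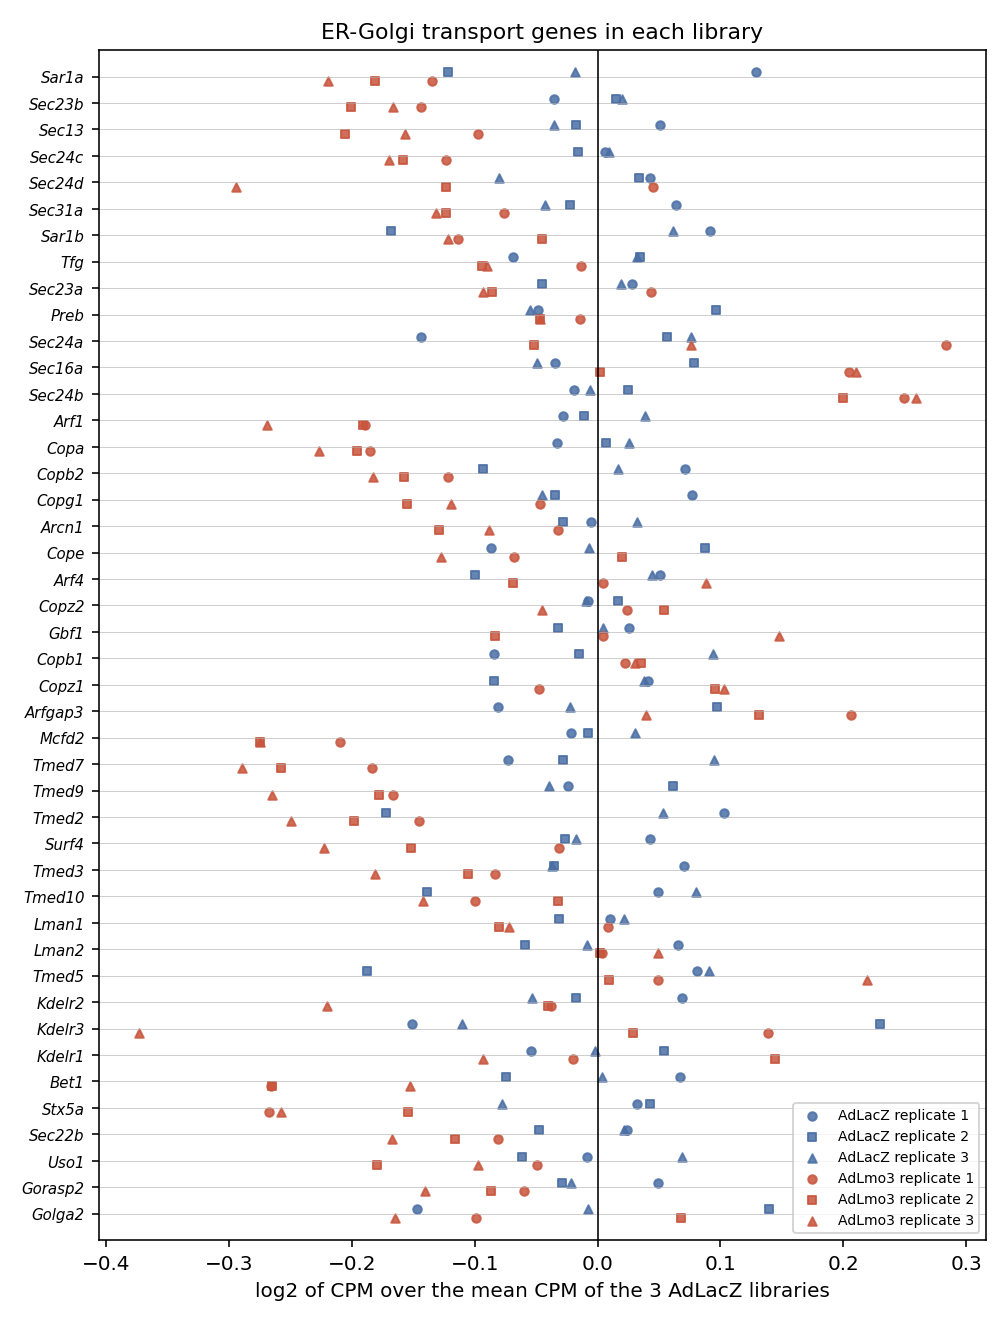
Level of each transport gene in each library, as log2 of its CPM over the mean CPM of the 3 AdLacZ libraries (blue for AdLacZ, red for AdLmo3, marker shape for the replicate), in the order of the fold changes within each role. The red points lie wholly left of the blue points in 19 genes and wholly right of them in *Sec24b* alone.

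The 3 KDEL receptors showed no difference that the spread between libraries allowed to be seen. *Kdelr1* was at 133.9, 144.3 and 138.8 CPM in AdLacZ and at 137.1, 153.6 and 130.3 CPM in Ad*Lmo3*. *Kdelr2* was at 161.9, 152.5 and 148.8 CPM in AdLacZ and at 150.4, 150.1 and 132.5 CPM in Ad*Lmo3*. *Kdelr3* was at 39.7, 51.7 and 40.8 CPM in AdLacZ and at 48.5, 44.95 and 34.0 CPM in Ad*Lmo3*. In each gene the libraries of the groups overlapped.

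The log2 fold changes of the receptors were 0.01 for *Kdelr1*, -0.10 for *Kdelr2* and -0.05 for *Kdelr3*, with adjusted p of 0.947, 0.529 and 0.892 from edgeR. The 95% intervals of the percent change were -10.8% to 14.4%, -17.0% to 5.38% and -23.6% to 22.03%. Larger changes lie outside these intervals, and smaller ones could not be resolved with 3 libraries a group. The sign for *Kdelr1* turned with library totals as the scale (-0.06). Per kb, *Kdelr1* (84.4 CPM in AdLacZ) and *Kdelr2* (84.4) were level, and *Kdelr3* (31.2) was lower than both in every library. *Kdelr1*, *Kdelr2* and *Kdelr3* made up 42.2% ± 1.12, 42.2% ± 2.31 and 15.6% ± 1.82 of the receptor level per kb in AdLacZ, and 43.9% ± 1.95, 40.7% ± 0.914 and 15.4% ± 1.74 in Ad*Lmo3* (SD, n = 3 each), with overlap for each.

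**Figure D4:**
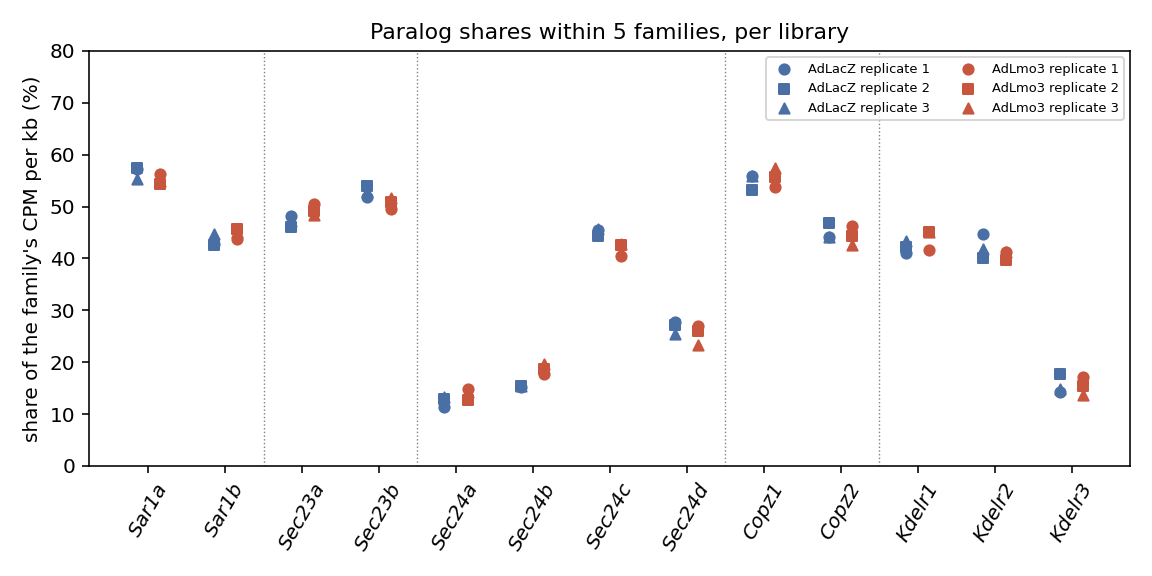
Share of each paralog in the summed CPM per kb of its family (%), per library, for the *Sar1*, *Sec23*, *Sec24*, *Copz* and *Kdelr* families (blue for AdLacZ, red for AdLmo3). The groups do not overlap for *Sec24b* (15.4% and 18.7%), *Sec24c* (45.2% and 42.0%) and the *Sec23* pair, and they overlap for the others.

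All 6 tethers and SNAREs had a fold change below 0 with the scaling factors, with a median of -0.11, and 4 of them were lower without overlap between the groups (13.2% of all genes), while none was called by edgeR or DESeq2. *Bet1*, a SNARE of ER-derived vesicles, was at 69.1, 62.7 and 66.2 CPM in AdLacZ and at 54.9, 54.9 and 59.4 CPM in Ad*Lmo3*. *Stx5a*, the Golgi syntaxin that pairs with it, was at 85.9, 86.5 and 79.5 CPM in AdLacZ and at 69.8, 75.5 and 70.2 CPM in Ad*Lmo3*. Both were lower in all Ad*Lmo3* libraries.

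For *Bet1* and *Stx5a* alike the log2 fold change was -0.23 ± 0.0647 and -0.23 ± 0.0646 (SE), a decrease of 14.6% and 14.5%, with adjusted p of 0.0952 and 0.0967 from edgeR and 0.0813 and 0.0738 from DESeq2. *Sec22b*, another SNARE of this complex, was at 98.3, 93.5 and 98.1 CPM in AdLacZ and at 91.4, 89.2 and 86.0 CPM in Ad*Lmo3*, again without overlap (log2 fold change -0.12, adjusted p = 0.298 with edgeR). The tethering factor *Uso1* (-0.11) and the Golgi matrix gene *Golga2* (-0.06) overlapped, and *Gorasp2*, which encodes a Golgi stacking protein, did not (-0.10, adjusted p = 0.438). *Golga2* had the smallest difference of the group (183.0, 223.2 and 201.5 against 189.2, 212.4 and 180.7 CPM). Summed over the 6 genes, the level was 813, 826.5 and 826.6 CPM in AdLacZ and 764.5, 770.1 and 740.5 CPM in Ad*Lmo3*.

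Other genes of the same route were listed by name beside the 44. Of 52 such genes (further TRAPP, SNARE, tether, receptor and coat genes) 49 were tested. None was called by edgeR in either direction, 5 were lower and 1 was higher at an unadjusted p under 0.05, and DESeq2 called 1 lower (*Mia3*, which helps load collagen at ER exit sites, log2 fold change -0.26, adjusted p = 0.0890 with edgeR and 0.0210 with DESeq2). Of the 49, 23 were below 0 and 26 above, with a median of 0.0038, and 8 were lower and 2 higher without overlap (13.2% and 13.3% of all genes). Their summed level was 4684 to 4872 CPM in AdLacZ and 4686 to 4784 CPM in Ad*Lmo3*, which overlapped. Of 25 coat genes of the trans-Golgi and endosomes, 1 was significantly induced (*Cltb*, a clathrin light chain, log2 fold change 0.34, adjusted p = 0.0372 with edgeR). Among the 25, 19 were below 0 and 6 above, with a median of -0.04. Without overlap 6 were lower and 3 higher, where 13.2% and 13.3% of all genes were.

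The proteins that the KDEL receptors retrieve were set beside them. In the annotation, 46 genes encode a protein that ends in KDEL, KEEL or the like (K, R or H, then D or E, then EL), and 39 of them were tested. The match is by the last 4 residues alone, and the 39 include a few proteins that do not enter the ER. Of the 39, 27 had a fold change below 0 (49.6% of all genes did), with a median of -0.12. With edgeR 6 were significantly repressed in Ad*Lmo3* (1.57% of all genes) while none was induced (2.71%). They were *Sdf2l1* (log2 fold change -1.58), *Calr* (-1.19), *Hspa5* (-1.16), *Hsp90b1* (-1.09), *Pdia4* (-0.73) and *Pdia6* (-0.69), chaperones and disulfide isomerases of the ER lumen, with adjusted p from 0.00243 to 0.0123 by edgeR. DESeq2 called 9 lower (3.43% of all genes) and none higher (5.26%).

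The sum of these 39 genes over the sum of the 3 receptors gave 44.95, 48.6 and 51.7 for AdLacZ and 34.0, 28.7 and 32.5 for Ad*Lmo3*. The groups did not overlap, and the means of 48.4 ± 3.36 and 31.7 ± 2.78 (SD, n = 3 each) differed 1.52-fold. A two-sided exact permutation test gave p = 0.1, the smallest that 3 against 3 libraries allow, so that this design could not reach 0.05. Without *Hspa5*, the most abundant of the 39, the means were 35.7 ± 1.73 and 25.9 ± 1.79, a 1.38-fold difference with the same p of 0.1. The ratio was chosen after the values were seen. It is taken within each library and does not depend on the scaling.

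The promoters of 36 of the 46 residents were at hand, and 5 of them held the ER stress element (13.9%), *Calr*, *Calr4*, *Hsp90b1*, *Hspa5* and *Pdia6*. Of the transport genes, 0 of 39 held it. The repressed residents *Sdf2l1* and *Pdia4* had a promoter at hand that lacked it. The UPRE core was in 2 of the 36 residents (5.56%), *Hspa5* and *Txndc5*, and in 20.5% of the transport genes. A link between these words and the fold changes was not tested. Of 12 genes of the unfolded protein response, regulators and targets together, 3 were significantly repressed with edgeR (1.57% of all genes were called lower). They were *Hspa5*, already counted among the residents, *Ddit3* (log2 fold change -0.84, adjusted p = 0.0471 with edgeR) and *Herpud1* (-0.72, adjusted p = 0.0100). *Xbp1* was at -0.11 (adjusted p = 0.482 with edgeR) and *Atf6* at -0.18 (adjusted p = 0.197 with edgeR). *Atf4* was at -0.34, with an adjusted p of 0.140 from edgeR and 0.0390 from DESeq2. *Dnajb9* was at 0.17 (adjusted p = 0.173 with edgeR). Of the 12, it was the only 1 that was higher without overlap (13.3% of all genes). Without overlap 6 were lower (13.2% of all genes), the 3 called genes with *Atf6*, *Atf4* and *Eif2ak3*. Of the 8 transport genes with the UPRE core, *Arf1*, *Copb2* and *Stx5a* were lower without overlap, where 43.2% of all 44 genes were, and *Copb1*, *Gbf1*, *Kdelr3*, *Sec23a* and *Sec24d* overlapped.

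**Figure D5:**
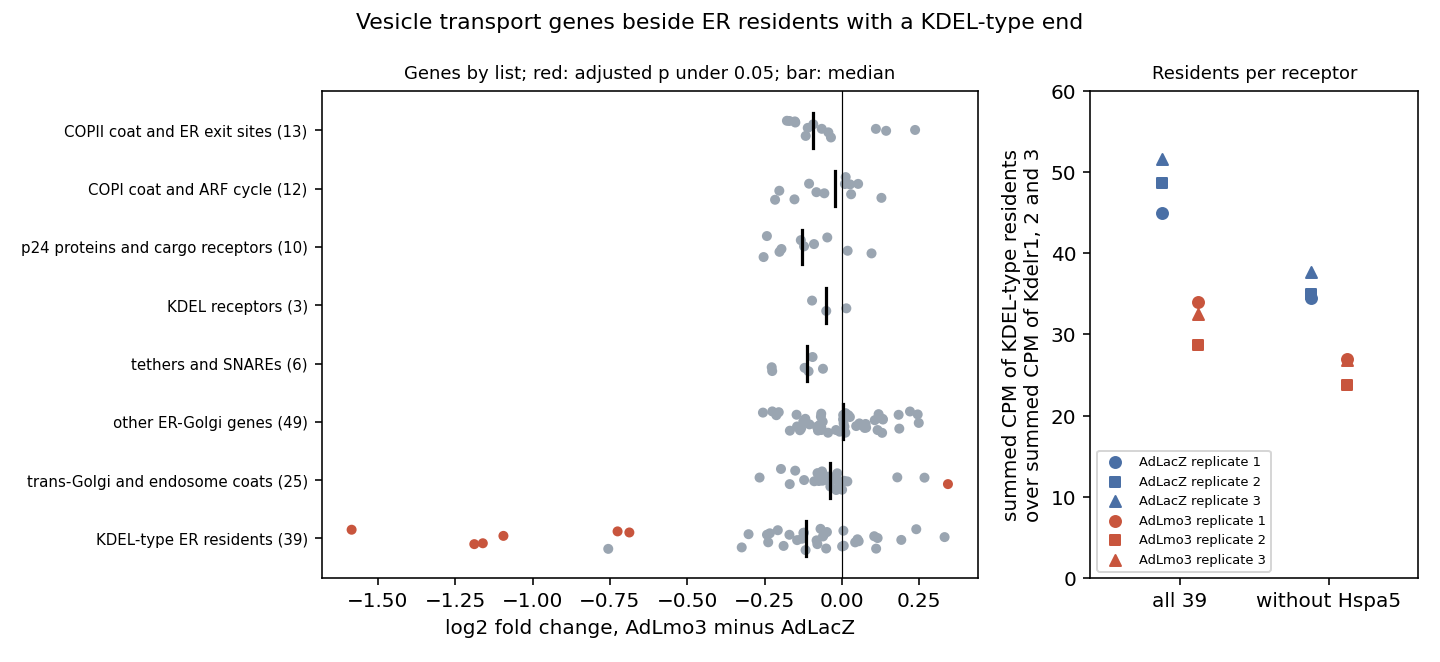
Left, log2 fold change (AdLmo3 minus AdLacZ) of each tested gene by list, with calls at an adjusted p under 0.05 from edgeR in red and the median as a bar. Right, the summed CPM of the residents with a KDEL-type end over that of *Kdelr1*, *Kdelr2* and *Kdelr3*, per library, with all 39 residents and without *Hspa5*. The transport genes lie between -0.25 and 0.24. The 6 called residents lie between -1.58 and -0.69, a range that also holds *Calr4* (-0.76), which was not called.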

How the data were processed

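Total RNA of 6 samples was sequenced as 75-base single reads after an NEBNext Ultra II RNA library preparation. The authors aligned the reads with STAR (version 2.5.0b in the submitters' processing notes, which also list DESeq2 1.6.3) to mm10 and deposited raw counts per gene symbol, 1 file per library. The counting program, its annotation and its strand setting are not given in the sources used here. Summary rows (reads in no gene, 7.15% to 8.94% of the total, and ambiguous reads, 0.476% to 0.543%) were left out of library sizes and tests. Intervals cover the spread between libraries. Their standard errors are the absolute log2 fold change over the square root of the F statistic of edgeR's test. The intervals are not adjusted for the number of genes tested, so an interval can leave out 0 for a gene that was not called. The sources used here do not say whether replicates were separate cultures, so p-values measure the spread between these libraries, which may be technical. The count tables of replicates differed by more than sampling noise.

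Counts were filtered with filterByExpr, scaled by TMM and tested with edgeR 4.0.16 (quasi-likelihood test, R 4.3.3, Benjamini-Hochberg adjustment over 12766 genes, threshold 0.05). CPM are scaled by TMM. DESeq2 1.42.0 and limma 3.58.1 (voom) were alternatives, beside other scalings, filters, a replicate block and leaving out each library. Scripts were tested on simulated data. Exon lengths, positions and shared 75-base words came from GENCODE M21 (GRCm38), and promoters from RefSeq. No protein sequence is printed.

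The transport genes and all lists were chosen with earlier results of these data known. By the naming rule, genes past the threshold, all KDEL receptors and the largest and smallest difference of each role are named, other transport genes are given by fold change, and at most 5 called genes of each further list are named. The motifs, *Mia3*, the residents past the fifth and the further library values were added after values were seen. Same-numbered replicates were checked for pairing by the correlation of their deviations, which was 0.0508, 0.225 and 0.234.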

Additional observations from a re-analysis of the deposited data

How the results depend on the processing

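None of the 44 genes was called by edgeR under the other scaling factors, without a count filter, with a filter of 1 CPM in 3 libraries, with the replicate block or without any single library. DESeq2 called 4 lower and 1 higher (and 1 of the other ER-Golgi genes lower), where it called 3.43% of all genes lower and 5.26% higher. Limma voom called 1 lower (*Mcfd2*), where it called 562 of 12766 genes in either direction. Library totals without scaling factors, an alternative added after seeing the data, called 7 lower, and 2 of the other ER-Golgi genes lower, with a median log2 fold change of -0.17. In the whole series library totals called 767 genes in either direction, and how many of these were lower was not counted. Replicates share only a number, and libraries 2 and 3 but not 1 correlated best with their own number. With the replicate block the smallest adjusted p of the 44 genes was 0.0857 and 498 genes of the series were called in place of 547. Series-wide calls ran from 77 (without AdLacZ replicate 3) to 1110 (DESeq2).

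The sign of 34 genes was the same in every setting, and that of 10 turned in at least 1. With library totals it turned for *Copb1* (-0.0436), *Copz1* (-0.0222), *Copz2* (-0.0613), *Arf4* (-0.0648), *Gbf1* (-0.0483), *Lman2* (-0.0559) and *Kdelr1* (-0.0588). Leaving out 1 library at a time gave log2 fold changes of -0.062 to 0.0158 for *Preb*, -0.0114 to 0.079 for *Copb1*, -0.0087 to 0.0398 for *Copz2*, -0.0377 to 0.0481 for *Arf4*, -0.0381 to 0.0788 for *Gbf1*, -0.0103 to 0.0518 for *Lman2*, -0.055 to 0.0649 for *Kdelr1*, -0.1509 to 0.0844 for *Kdelr3* and -0.1305 to 0.0142 for *Golga2*. The cause of these turns was not tested. The ratio of residents to receptors differed 1.45-fold to 1.58-fold without any single library, chosen after seeing the data. With 3 libraries a group, a difference from 0 could not be resolved where the printed interval holds 0.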
